A study of Mus musculus with 12 samples.

Results

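The genes described here encode the proteins of the cytosolic ribosome. They were chosen by symbol from the deposited probe table: every symbol of the Rpl or Rps form with a number, together with Rplp0, Rplp1, Rplp2 and Rpsa. The rule found 50 genes of 34509 symbols, measured by 73 of 46632 probes, and they were described as candidates for reference genes in cartilage. The RNA came from femoral head cartilage explants of TS-4/5∆cat mice aged 21 days, which carry in-frame deletions of the exons encoding the catalytic domains of ADAMTS-4 and ADAMTS-5, the main cartilage aggrecanases. All arrays share these deletions. Explants, 4 hips per well, were cultured for 3 days untreated, with 10 ng/mL IL-1α, an inflammatory cytokine that drives cartilage breakdown, or with 10 µM retinoic acid, the vitamin A derivative that strips cartilage of aggrecan. Each treatment was measured on 4 Illumina bead arrays, 2 from the line Donut (batch 1) and 2 from the line Gertrude (batch 2), so that line and batch cannot be told apart. The study's methods describe 3 unpooled mice per treatment without matching mice to arrays, and whether the 4 arrays are separate animals is not stated, so p-values measure only the spread between these arrays, which may be technical.

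Ribosomal proteins assemble with ribosomal RNA in near-equal amounts, and each subunit is unstable when one of its proteins is missing. Most of their messages start with a C followed by a run of pyrimidines, the TOP motif (terminal oligopyrimidine), through which mTOR and LARP1 control their translation and stability as a group. Because every cell makes them in large amounts, ribosomal protein genes are widely used as reference genes for qPCR, which needs a message that does not move with the treatment. The study's own qPCR used Rpl10 and Rpl26 in this way.

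Of the 50 genes, 29 belonged to the large subunit (Rpl) and 21 to the small subunit (Rps). A probe was kept when its signal was above background (detection p under 0.05) on at least 4 of 12 arrays, and 42 genes had such a probe, 24 of the large and 18 of the small subunit. For 38 of the 42 the probe was detected on all 12 arrays. Each gene is given by its brightest kept probe, as normalized intensity on the log2 scale. The 8 genes with no kept probe were Rpl17, Rpl39l, Rpl4, Rplp0, Rplp2, Rps18, Rps20 and Rpsa. Of the 73 probes 17 were not kept, and 11 of them were detected on 0 arrays. The symbols are those of the array: 48 of 50 are current in RefSeq (GRCm38.p6), Rps3a is now Rps3a1 and Rps4y2 is now Rps4l. By the same rule RefSeq holds 84 protein-coding genes, of which 36 had no probe under their current symbol. Rpl10, Rpl19, Rplp1, Rpl3, Rpl7, Rps4x and Rps27 are among these and were not analysed here. Rplp0 is also listed on the array under its older symbol Arbp, which is described below beside the genes of the rule.

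The annotated starts of some of these genes hold the C and T run of TOP messages. RefSeq promoter sequences were matched for 37 of the 50 genes. The windows below hold 15 bases on each side of the annotated start, in lower case, with the unbroken run of C and T that covers the start in capitals. Rpl35 and Rps10 are shown because their probes changed by under 0.13 (log2) in each treatment comparison, Rpl28 and Rpl31 because theirs fell with both treatments, Rpl22 because its probe fell most with retinoic acid, and Rpl26 as the reference gene of the study.
Rpl35 (chr2:39005117-39005146, minus strand): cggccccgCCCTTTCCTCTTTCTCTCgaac
Rps10 (chr17:27635230-27635259, minus strand): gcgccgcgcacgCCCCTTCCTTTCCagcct
Rpl28 (chr7:4792950-4792979, plus strand): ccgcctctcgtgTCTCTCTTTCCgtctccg
Rpl31 (chr1:39367836-39367865, plus strand): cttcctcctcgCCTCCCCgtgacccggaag
Rpl22 (chr4:152325711-152325740, plus strand): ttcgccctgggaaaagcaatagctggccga
Rpl26 (chr11:68901551-68901580, plus strand): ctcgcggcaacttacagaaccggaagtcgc
The run over the start was 18 bases long for Rpl35, 13 for Rps10, 11 for Rpl28 and 7 for Rpl31. These windows are examples and do not stand for their classes. Among other genes that changed by under 0.13, Rps9 and Rps21 have a run over the start, and Rpl18, Rpl37 and Rpl41 have none. Rpl22l1, which also fell with both treatments, has a start at G in no run. The starts shown for Rpl22, which has 2 annotated starts, and for Rpl26 are a G and an A and lie in no such run. An annotated start can differ from the start used in a tissue, so a window without a run says only that these letters are not there.

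Most of the annotated starts lay in no run of C and T. A start at C inside a C or T run of at least 5 bases was found for 27% of the 37 genes and for 4.81% of the 17492 genes with a RefSeq promoter. A run of at least 8 bases covered the start in 29.7% and 3.46%. In the window from 250 bases before the start to 50 from it, on either strand, the ETS-family motif CCGGAAG, which GABP binds, was present for 45.9% of the genes and 11.9% of all genes. The YY1 motif AAGATGGC was present for 8.11% and 3.22%, the SP1 motif GGGCGG for 67.6% and 46.3%, and TATAAA for 10.8% and 13.3%. Each motif was counted on its own, also where matches overlapped. Of 7 genes with a promoter that were called in any treatment comparison below, 2 had the C start in a run of at least 5, as had 6 of the 24 other kept genes with a promoter.

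The probes of these genes were among the brightest on the arrays. Of the 50 probes with the highest mean intensity 15 were ribosomal protein probes, and of the top 100, 20. Brightness also depends on the probe, so intensities are compared between arrays and not between genes. The highest normalized value was 14.24, the mean intensity of the 42 genes ran from 5.06 (Rpl14) to 14.09 (Rps9) with a median of 12.66, and 19 genes lay within 1 of the highest value. Over the 12 arrays the SD of a gene had a median of 0.27 for the 42 genes and 0.45 for all 14317 genes with a kept probe, and within treatment and batch 0.12 against 0.16. Among the smallest SDs over 12 arrays were those of Rps9 (0.054), Rpl37 (0.082) and Rpl41 (0.093), all bright probes. Another kept probe, listed under 2210411K19Rik, which RefSeq gives as a synonym of Rpl41, had an SD of 0.81. Among the largest were those of Rps3a (1.61), Rpl21 (0.80), Rps19 (0.76) and Rpl22l1 (0.62).

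**Figure D1:**
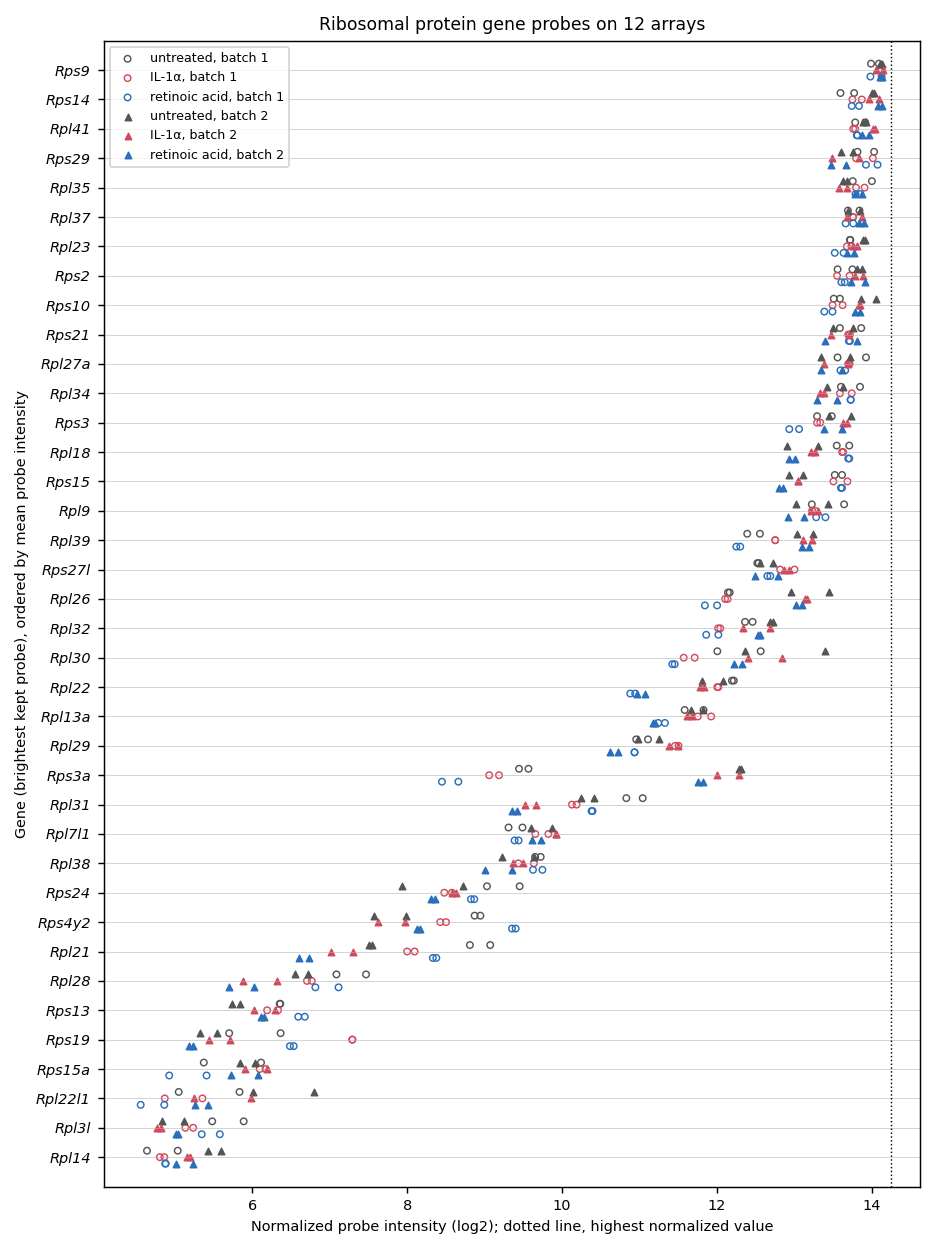
Normalized probe intensity (log2) of 38 of the 42 ribosomal protein genes with a kept probe on each of 12 arrays, 1 row per gene in order of mean intensity. Circles are batch 1 and triangles batch 2, grey is untreated, red IL-1α and blue retinoic acid, and the dotted line is the highest normalized value, 14.24. The bright genes at the top lie close together below that line, while Rps3a splits by batch and Rpl22 by retinoic acid.

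The batches differed in signal without overlap. Median raw intensity was 34.3 to 42.9 in batch 1 and 45.1 to 63.3 in batch 2, and the arrays had 13786 to 14965 and 16732 to 19485 detected probes. Arrays of one treatment and batch correlated at 0.983 to 0.995 across kept probes. The ribosomal protein probes held 2.93% to 4.94% of all background-corrected signal of an array. The lowest shares, 3.22% and 2.93%, were on the batch 2 retinoic acid arrays. The tissue was checked on cartilage markers: 9 of 11 marker genes had a kept probe, Matn3 and Lect1 had none, and Acan, the gene for aggrecan, had a mean of 13.26 untreated. All 9 markers fell with retinoic acid and 7 fell with IL-1α, and their summed linear signal was 64306 to 78384 untreated, 36212 to 49274 with IL-1α and 10526 to 16389 with retinoic acid. Of 7 neutrophil markers 5 fell with retinoic acid, and their summed signal was 9708 to 16156 untreated, 16871 to 17750 with IL-1α and 5625 to 14752 with retinoic acid. Of 5 macrophage markers with a kept probe (Lyz had none) 3 rose and 0 fell with retinoic acid, and 2 rose and 2 fell with IL-1α. They summed to 5645 to 6716 untreated, 5013 to 8562 with IL-1α and 7378 to 8233 with retinoic acid. Of 4 erythroid markers 0 were called with either treatment. Of 3 osteoblast markers 2 fell with each, of 5 endothelial markers 1 fell with retinoic acid and 2 with IL-1α, and of 5 markers of proliferating cells 0 were called with retinoic acid and 4 fell with IL-1α. The part of these shifts in the results below was not tested. In tissue RNA, fewer cells of a type and less RNA per cell cannot be told apart.

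With retinoic acid, 8 of the 42 genes fell and 1 rose against untreated cartilage. By limma with Benjamini-Hochberg adjustment over all kept probes at 0.05, 9 of 42 (21.4%) were called, against 36.7% of all 14317 genes. The genes that fell were Rpl13a, Rpl21, Rpl22, Rpl22l1, Rpl28, Rpl30 and Rpl31 of the large subunit and Rps3a of the small subunit, and the one that rose was Rps4y2. Among all genes 18.1% fell and 18.6% rose. At over 1.5-fold 6 of the 9 stayed, against 22.8% of all genes, and at an unadjusted p under 0.05 there were 12, against 45.4%. The median log2 change was -0.11 for the 42 genes and 0.01 for all genes, and 34 of the 42 differences were below 0. Only 3 genes, Rpl13a, Rpl22 and Rpl29, had groups of 4 arrays that did not overlap, against 18% of all genes.

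Rpl22, a large subunit protein that also binds other RNAs and that ribosomes can do without, had the largest fall. Its log2 intensities were 12.22, 12.19, 11.81 and 12.07 on the untreated arrays (here and below batch 1 replicates 1 and 2, then batch 2 replicates 1 and 2), 12.004, 12.02, 11.83 and 11.78 with IL-1α, and 10.94, 10.88, 11.07 and 10.96 with retinoic acid. All 4 retinoic acid arrays lay below every other array. The mean was 12.07 ± 0.19 (SD, n = 4) untreated and 10.96 ± 0.08 (SD, n = 4) with retinoic acid, a 2.16-fold lower level (log2 change -1.11 ± 0.12 SE, limma adjusted p = 1.39e-05). The log2 change was -1.29 in batch 1 and -0.92 in batch 2.

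Rpl22l1, the paralog that can take the place of Rpl22 and whose message Rpl22 represses in other cells, fell as well. Its dim probe, detected on 7 of 12 arrays, read 5.05, 5.84, 6.01 and 6.80 untreated and 4.86, 4.56, 5.26 and 5.43 with retinoic acid, and these groups overlapped. The log2 change was -0.90 ± 0.18 (SE, limma adjusted p = 0.00158), with -0.73 in batch 1 and -1.06 in batch 2. Rpl22 and its paralog both fell on these arrays.

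Rpl31, at the exit of the nascent chain tunnel, fell by 0.74 ± 0.13 on the log2 scale (SE, limma adjusted p = 0.000541). It read 10.83, 11.04, 10.41 and 10.24 untreated, 10.19, 10.13, 9.67 and 9.53 with IL-1α, and 10.38, 10.39, 9.35 and 9.42 with retinoic acid. Within each batch both treatments lay below untreated, and batch 2 was lower than batch 1 throughout. Over both batches the retinoic acid and untreated arrays overlapped. Rps3a, a small subunit protein near the binding site of initiation factor eIF3, read 9.44, 9.57, 12.29 and 12.31 untreated and 8.66, 8.45, 11.75 and 11.82 with retinoic acid. It fell by 0.73 ± 0.13 (log2, SE, limma adjusted p = 0.000566), by 0.95 in batch 1 and by 0.51 in batch 2.

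Rpl30 read 12.56, 12.004, 12.36 and 13.40 untreated and 11.42, 11.45, 12.32 and 12.22 with retinoic acid, a log2 change of -0.73 ± 0.17 (SE, limma adjusted p = 0.00477). The untreated arrays of Rpl30 differed from each other by more than 1 on the log2 scale in batch 2, and the groups overlapped. Rpl21 read 9.07, 8.81, 7.51 and 7.54 untreated and 8.33, 8.38, 6.60 and 6.73 with retinoic acid, lower in both batches. Rpl28, a protein of the large subunit that yeast lacks, changed by -0.54 and Rpl13a, also known for its role in a complex that silences messages after interferon, by -0.49. Rps4y2 was the gene that rose, by 0.42 ± 0.15 (log2, SE, limma adjusted p = 0.0478), and its call was lost in 8 of 12 fits that left out 1 array.

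With IL-1α, 2 genes rose and 4 fell against untreated cartilage, 6 of 42 (14.3%) against 30.2% of all genes, of which 15.1% rose and 15% fell. Rpl29 and Rps19 rose, and Rpl21, Rpl22l1, Rpl28 and Rpl31 fell. At over 1.5-fold 3 of the 6 stayed, against 17.1% of all genes, and 11 of 42 had an unadjusted p under 0.05, against 41.5%. The median log2 change was -0.02 for the 42 genes and 0.01 for all genes. The groups of 4 arrays did not overlap for Rpl29, Rpl31 and Rps27l, against 14.3% of all genes. All 4 genes that fell also fell with retinoic acid, and both comparisons share the untreated arrays. Without untreated batch 1 replicate 2 or without IL-1α batch 1 replicate 1 the count was 3.

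Rpl31 fell most with IL-1α, by 0.75 ± 0.13 on the log2 scale (SE, limma adjusted p = 0.000816), and by 0.78 in batch 1 and 0.73 in batch 2. Rpl21 read 8.10, 7.999, 7.01 and 7.30 with IL-1α, below the untreated arrays of its batch. Its log2 change was -0.63 ± 0.16 (SE, limma adjusted p = 0.00923). Rpl28 read 7.47, 7.09, 6.56 and 6.72 untreated, 6.77, 6.71, 5.88 and 6.32 with IL-1α, and 7.11, 6.81, 5.70 and 6.03 with retinoic acid. Within a batch the treated arrays lay below the untreated ones, except 1 retinoic acid array of batch 1. Its log2 change was -0.54 ± 0.13 (SE) with either treatment.

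Rpl29, a large subunit protein that also binds heparin and heparan sulfate and without which mice stay small, read 10.96, 11.11, 11.26 and 10.99 untreated and 11.46, 11.50, 11.38 and 11.49 with IL-1α. All IL-1α arrays lay above all untreated arrays, a rise of 0.38 ± 0.12 (log2, SE, limma adjusted p = 0.0325) that lost its call in 7 of 12 fits without 1 array. Rps19, needed to mature the RNA of the small subunit and mutated in Diamond-Blackfan anaemia, read 5.70, 6.37, 5.54 and 5.33 untreated and 7.29, 7.29, 5.44 and 5.72 with IL-1α. Its rise of 0.70 ± 0.21 (log2, SE, limma adjusted p = 0.0233) was 1.26 in batch 1 and 0.14 in batch 2, and the call was lost without any 1 of the 4 batch 1 arrays of these treatments. Its difference between batches passed the test (-1.11 ± 0.27, log2, SE, limma adjusted p = 0.0293).

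Between the 2 treatments, retinoic acid gave lower levels of Rpl13a, Rpl22, Rpl29 and Rps3a and a higher level of Rps4y2 than IL-1α, 5 of 42 (11.9%) against 32.5% of all genes, of which 16.1% were higher and 16.4% lower. At over 1.5-fold 3 stayed, against 20.2% of all genes, and 8 of 42 had an unadjusted p under 0.05, against 41.5%. Rpl29 had 10.93, 10.94, 10.62 and 10.72 with retinoic acid and was 1.57-fold lower than with IL-1α (log2 change -0.65 ± 0.12 SE, limma adjusted p = 0.00111). Rpl22 was 1.92-fold lower (log2 change -0.94 ± 0.12 SE, limma adjusted p = 5.98e-05), and Rpl13a 1.42-fold lower. Rps4y2 read 8.43, 8.50, 7.63 and 7.97 with IL-1α and 9.35, 9.40, 8.13 and 8.16 with retinoic acid, 1.55-fold higher (log2 change 0.63 ± 0.15 SE, limma adjusted p = 0.00661). The groups did not overlap for Rpl13a, Rpl22, Rpl29 and Rps27l, against 18.9% of all genes.

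**Figure D2:**
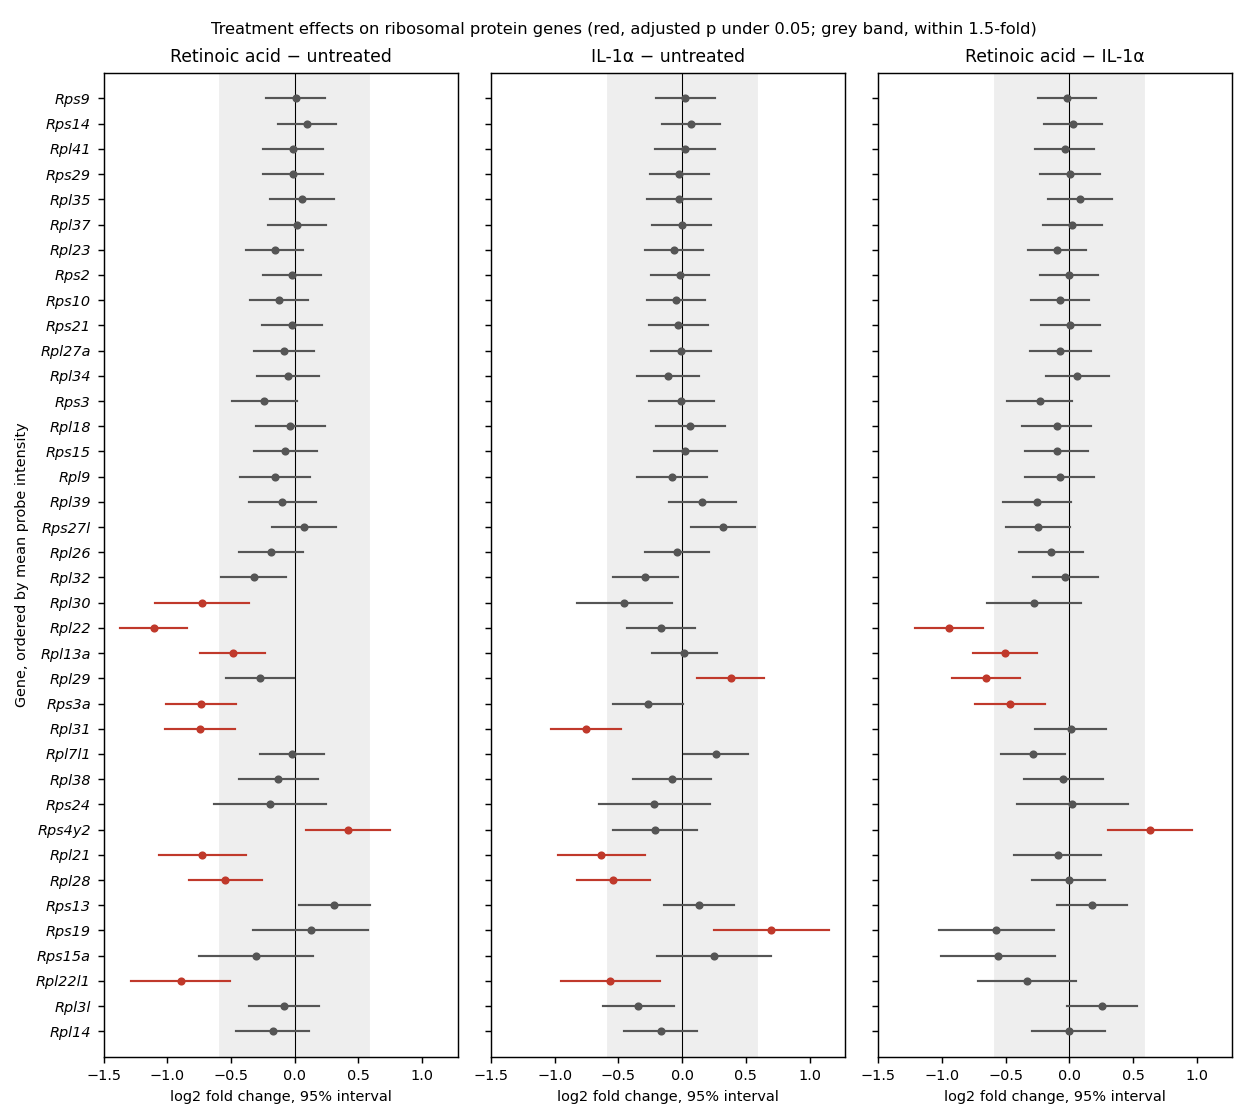
Log2 fold change with its 95% confidence interval for 38 of the 42 genes, in order of mean probe intensity, for retinoic acid minus untreated, IL-1α minus untreated and retinoic acid minus IL-1α. Red marks an adjusted p under 0.05 and the grey band a change within 1.5-fold. All red genes lie in the lower, dimmer part of the panels, and none of the 16 genes at the top, within 1 of the highest value, is red.

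Stability was read from the interval of each difference, since a p that misses the threshold does not show that a gene held still. The 95% interval (not adjusted for the number of genes) lay wholly within 1.5-fold for 29 of 42 genes with retinoic acid against untreated (49.4% of all genes), for 32 with IL-1α against untreated (53% of all genes) and for 32 between the treatments (53.6% of all genes). In all 3 comparisons it did so for 26 of 42 genes (61.9%), against 30.6% of all genes. Among these were Rpl14, Rpl18, Rpl23, Rpl26, Rpl27a, Rpl32, Rpl34, Rpl35, Rpl37, Rpl38, Rpl39, Rpl41, Rpl7l1 and Rpl9 of the large subunit and Rps10, Rps14, Rps15, Rps2, Rps21, Rps27l, Rps29, Rps3 and Rps9 of the small subunit. The Rpl14 probe was detected on only 5 of 12 arrays, at a mean of 5.06. Its interval lies near background and does not show a stable message. At the other end, 11 of 42 genes (26.2%) were called in at least 1 of the 3 comparisons, against 54.3% of all genes.

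The called genes were among the dimmer ones, and the scaling of the arrays moved the bright ones. For the 19 genes whose mean lay within 1 of the highest normalized value, a division made after the values were seen, limma called 0 in each treatment comparison, and 0 had an unadjusted p under 0.05. Of all 95 genes with a mean that near the highest value, these 19 included, 10, 4 and 8 were called. For the 23 genes further from it, 9, 6 and 5 were called, against 36.7%, 30.2% and 32.5% of all genes. Quantile normalization gives every array the same set of values. When arrays were scaled to one median instead, the 19 bright genes had a median log2 change with retinoic acid of -0.31, where quantile normalization gave -0.03, and all 19 were below 0. The median over all kept probes was 0.08 and 0.02. The 76 other genes with probes equally near the highest value had a median of -0.29 with 69 below 0, so the shift was not particular to ribosomal protein genes. With IL-1α the 19 genes had a median of -0.11 under median scaling and -0.01 under quantile normalization. Under median scaling only 5 of 42 genes stayed within 1.5-fold in all 3 comparisons. The intervals were also wider, with a median half-width over the 42 genes of 0.35 (log2) against 0.26 under quantile normalization. The share of all genes within 1.5-fold under median scaling was not counted. Rpl23 and Rps3 were called among the 19 with retinoic acid under that scaling.

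**Figure D3:**
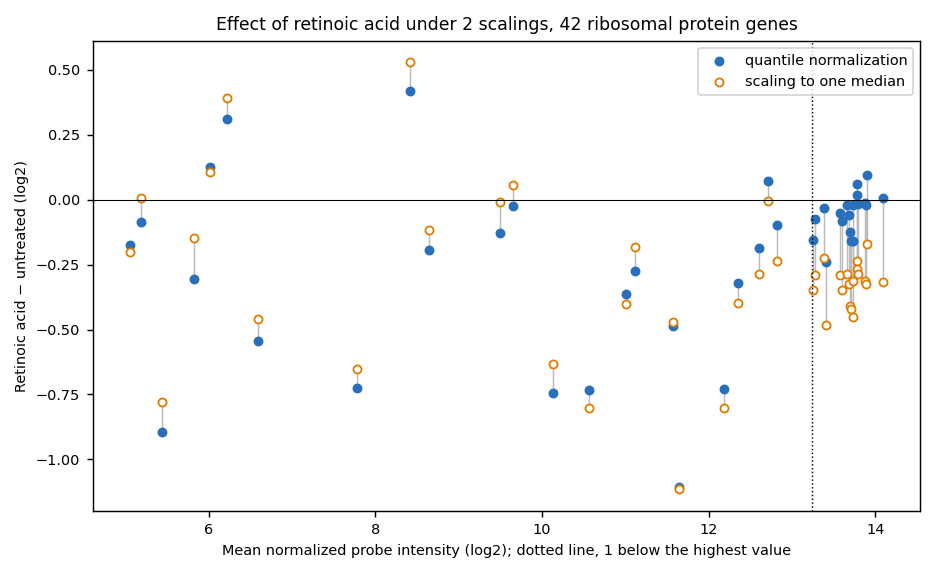
Retinoic acid minus untreated (log2) for the 42 genes against mean normalized probe intensity, under quantile normalization (filled) and under scaling to one median (open), joined for each gene. The dotted line is 1 below the highest value. To its right the filled points have a median of -0.03 and the open points of -0.31, and to its left the open points lie above or below the filled ones by smaller amounts.

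Rpl26, which sits at the polypeptide exit tunnel and was used for the study's qPCR, held within 1.5-fold between treatments on these explant arrays. The study took the geometric mean of Rpl26 and Rpl10 as its reference. Its text names cultured chondrocytes for the qPCR and a figure legend names explants. Rpl26 alone on these arrays is therefore not a test of that reference. It read 12.16, 12.14, 13.45 and 12.95 untreated, 12.10, 12.14, 13.17 and 13.13 with IL-1α, and 11.84, 12.001, 13.09 and 13.02 with retinoic acid. Within a batch the treatments were close, and every batch 2 array lay above every batch 1 array. The log2 change was -0.19 with retinoic acid (95% interval -0.44 to 0.07, limma adjusted p = 0.240), with -0.23 in batch 1 and -0.14 in batch 2. With IL-1α it was -0.04 (95% interval -0.29 to 0.21), which is below 1.5-fold either way. In the exact permutation test, two-sided over 4 against 4 arrays, whose smallest p is 0.0286, Rpl26 gave p = 0.6 for retinoic acid and p = 0.857 for IL-1α (0.84 and 0.947 after Benjamini-Hochberg over 63 such tests). That test pools the batches, whose difference enters its spread, so these p-values say nothing about stability. Between batches Rpl26 differed by 1.07 ± 0.10 (log2, SE, limma adjusted p = 6.77e-08), 2.1-fold higher in batch 2.

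Other ribosomal protein genes in common use as references differed from each other. Rps29 read 13.81, 14.03, 13.76 and 13.60 untreated, 13.79, 14.01, 13.83 and 13.48 with IL-1α, and 13.92, 14.07, 13.66 and 13.47 with retinoic acid, with changes of -0.02 in both comparisons against untreated. Rpl32 changed by -0.32 ± 0.12 with retinoic acid (log2, SE, limma adjusted p = 0.05005, just above the threshold) and by -0.29 ± 0.12 with IL-1α (limma adjusted p = 0.0839). The brightest probe of Rps3 gave -0.24 with retinoic acid and -0.01 with IL-1α, and neither passed the test. Its other kept probe gave -0.35 and -0.04, and with the mean of its kept probes Rps3 was called with retinoic acid. By the brightest probe Rpl13a was the one called. It read 11.58, 11.83, 11.82 and 11.66 untreated and 11.24, 11.33, 11.18 and 11.20 with retinoic acid, all below the untreated arrays (exact permutation p = 0.0286, the smallest possible, 0.112 after adjustment over 63 tests). Its 2 kept probes gave -0.49 and -0.47. Rplp0 under that symbol, Rps18 and Rpl4 could not be measured, since none had a kept probe.

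Rplp0 was measured under its older symbol Arbp. This protein forms the base of the stalk that recruits elongation factors, and its message is a common qPCR reference. The kept Arbp probe read 8.63, 8.73, 9.29 and 9.30 untreated, 8.33, 8.41, 8.76 and 8.91 with IL-1α, and 7.83, 7.98, 8.06 and 8.23 with retinoic acid. All retinoic acid arrays lay below all untreated arrays. Its level fell by 0.96 ± 0.12 with retinoic acid (log2, SE) and by 0.38 with IL-1α, and both passed the limma test. Rack1, a scaffold protein of the small subunit listed as Gnb2l1, fell by 0.83 with retinoic acid (limma adjusted p = 0.0045).

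Pairwise stability was described by the geNorm M, the mean SD of the log2 ratios of a gene to all other reference candidates, where a lower value means steadier ratios. It ignores a constant shift of an array and was computed on background-corrected log2 values without quantile normalization. The candidates were 42 ribosomal protein genes and 16 reference genes outside the ribosome, so each gene was compared mostly with ribosomal ones. Genes that move together then get a low M, and the medians do not rank these sets by stability. Over 12 arrays the median M was 0.49 for the 42 genes and 0.62 for the 16 others. The lowest were Rps2 (0.427), Rps14 (0.428) and Rpl23 (0.430), and the lowest outside the ribosome was Gapdh (0.462). The highest was Rps3a (1.71). Within batches the medians were 0.30 and 0.30 for the ribosomal protein genes and 0.30 and 0.39 for the others, and M of Rpl26 was 0.69 over all arrays but 0.26 and 0.27 within batches. Of the 16 genes outside the ribosome 5 were called with retinoic acid and 6 with IL-1α, where 36.7% and 30.2% of all genes were called. Tfrc, the transferrin receptor, rose by 0.96 with IL-1α, Tuba1a, a tubulin, fell by 1.14 with IL-1α and rose by 0.62 with retinoic acid, and Cyc1, a mitochondrial cytochrome, rose by 0.81 with retinoic acid. Gapdh changed by 0.07 with retinoic acid and by -0.27 with IL-1α, neither called. Actb differed by 0.75 between the treatments (limma adjusted p = 0.0120).

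**Figure D4:**
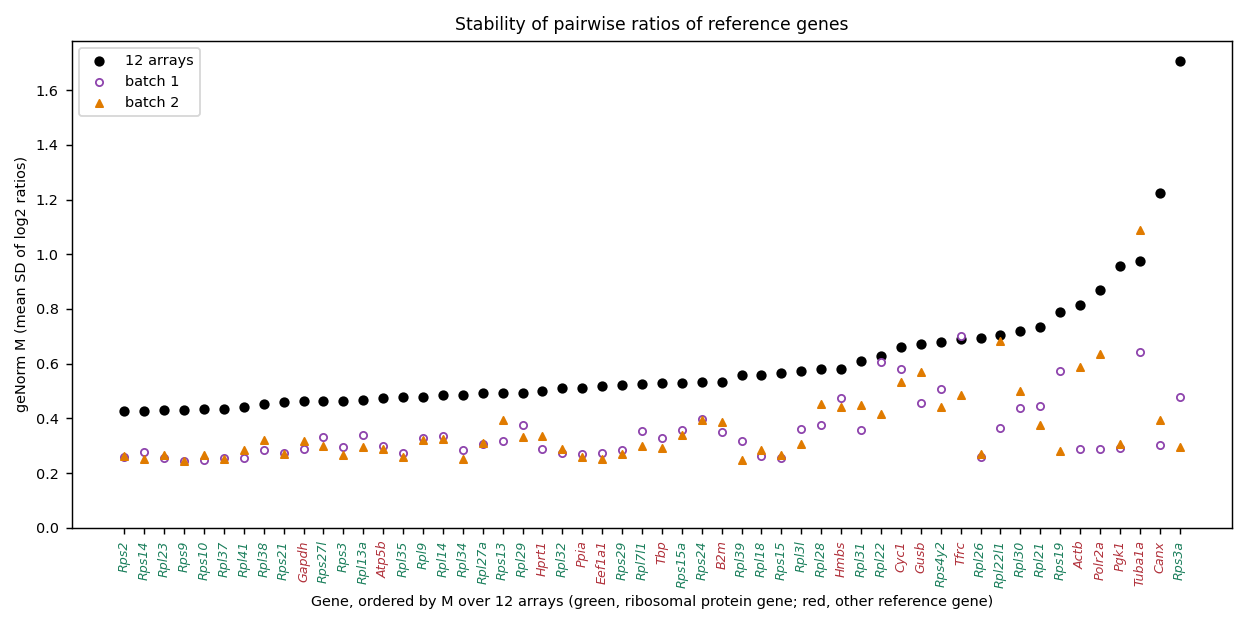
geNorm M (mean SD of log2 ratios to the other genes) of 38 of the 42 ribosomal protein genes (green names) and 16 other reference genes (red names), in order of M over 12 arrays (black), with M within batch 1 (open circles) and batch 2 (triangles). Rps2 has the lowest M, 0.427, and Rps3a the highest, 1.71. The values within a batch lie below the value over 12 arrays for all but Tfrc and Tuba1a.

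More of these genes differed between batches, with 6 arrays against 6, than between treatments. Of the 42 genes 26 (61.9%) differed between batch 2 and batch 1, 13 higher and 13 lower, against 76.1% of all genes, and 6 of 42 (14.3%) differed by over 2-fold, against 20.8% of all genes. At over 1.5-fold there were 12 of 42, against 46.6% of all genes, and at an unadjusted p under 0.05 there were 27, against 77.6%. The 95% interval lay within 1.5-fold for 23 of 42 genes, among them Rps9, Rps2 and Rpl41, against 31.3% of all genes. The kept probe under 2210411K19Rik, the synonym of Rpl41, was 2.76-fold lower in batch 2 (-1.46 ± 0.14, log2, SE, limma adjusted p = 9.66e-08). Rps3a was 8.09-fold higher in batch 2 (3.02 ± 0.10, log2, SE, limma adjusted p = 8.44e-13), with raw intensities of 216 to 539 in batch 1 and 4757 to 7389 in batch 2. Rpl26 was 2.1-fold higher, Rpl21 2.52-fold lower (-1.33 ± 0.12), Rps19 2.3-fold lower (-1.20 ± 0.16) and Rps4y2 2.01-fold lower (-1.01 ± 0.12, log2, SE). Whether these are differences of the mouse lines or of the hybridisations cannot be told apart.

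Different probes of one gene did not always give the same batch difference. Rps3, which lies at the entry of the message into the ribosome, had a kept probe (ILMN_1245399) at 13.29 and 13.48 on the batch 1 and 13.73 and 13.44 on the batch 2 untreated arrays. Its other kept probe (ILMN_2637639) read 9.17 and 9.16 against 12.88 and 12.76. The batch difference was 0.35 ± 0.10 by the first and 3.62 ± 0.09 by the second (log2, SE). Rps24 differed by -0.45 and 0.62 by its 2 probes, and Rpl7l1 by 0.26, -0.79 and 0.23 by its 3, with all of these called. Among the 20 pairs of kept probes of one gene, over 9 genes, 8 pairs were both called between batches and 3 of the 8 had opposite signs.

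**Figure D5:**
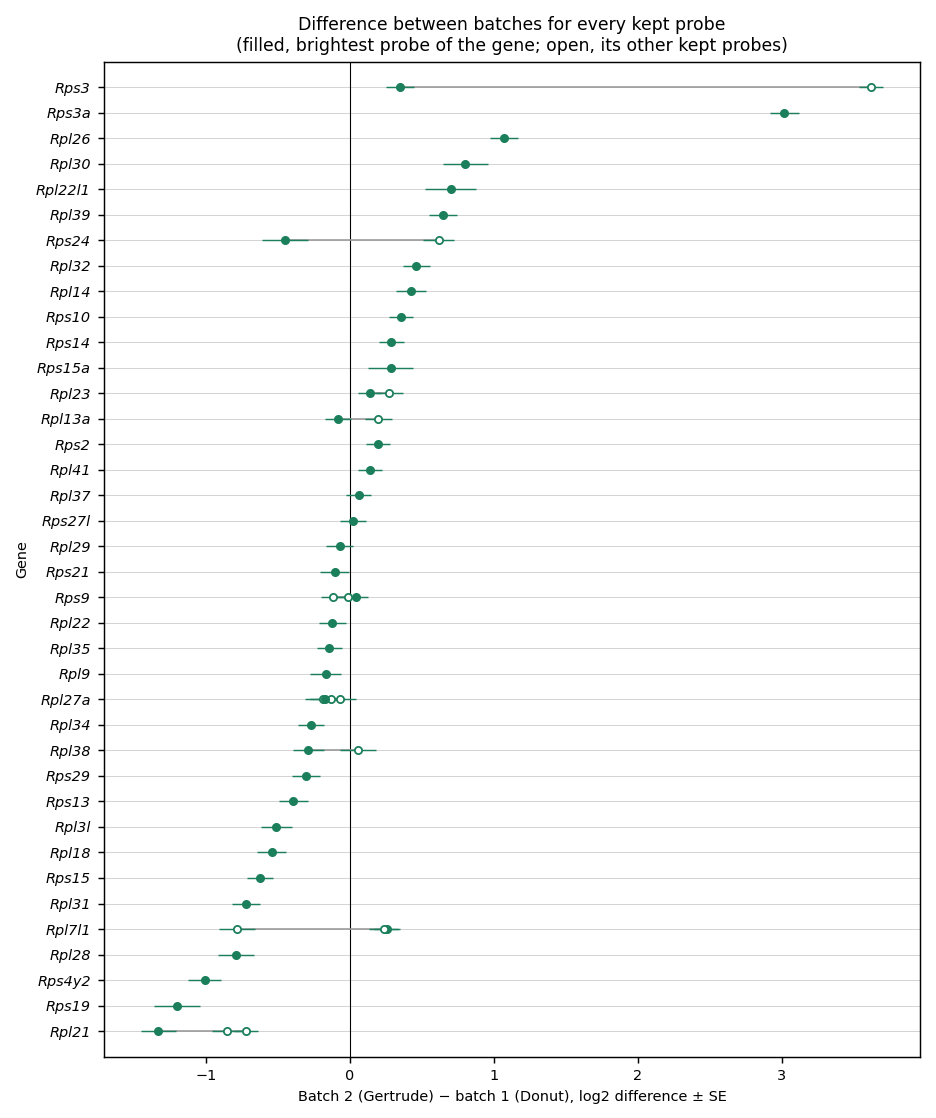
Batch 2 (Gertrude) minus batch 1 (Donut) as log2 difference ± SE for every kept probe of 38 of the 42 genes, with genes in order of their probe with the largest difference. Filled points are the brightest probe of a gene and open points its other kept probes, joined by a line. Rps3 spans 0.35 to 3.62, and Rps24 and Rpl7l1 lie on both sides of 0.

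Probes also divided on treatment. With retinoic acid 4 of the 20 pairs were both called and 0 of these in opposite directions: Rpl13a, and the 3 pairs of Rpl21, whose probes fell by 0.54, 0.73 and 0.59. For 6 pairs only 1 probe was called. Rpl27a, a large subunit protein, had 4 kept probes: ILMN_1215659 fell by 0.79 with retinoic acid, while its bright probes changed by -0.08 and -0.04. With IL-1α the first fell by 0.57 (limma adjusted p = 0.00303) and the dim probe ILMN_1221403 rose by 0.46 (limma adjusted p = 0.0240). The first read 11.99, 12.07, 11.89 and 11.60 untreated and 11.22, 11.39, 11.35 and 11.33 with IL-1α, and the dim one 5.61, 5.01, 5.31 and 5.19 and then 6.16, 5.74, 5.46 and 5.60. Rps24 and Rpl23 each had a second probe that fell with retinoic acid, by 0.77 and 0.63, where the brightest gave -0.19 and -0.16. Which transcripts each probe binds was not tested, and pseudogene copies are common in this family.

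Treatment effects were tested for a difference between batches. With retinoic acid against untreated, limma called 0 of 42 genes (2.7% of all genes), and 1 had an unadjusted p under 0.05 (13.9% of all genes). For IL-1α against untreated it called Rps19 (1 of 42, against 4.57% of all genes). For retinoic acid against IL-1α it called Rpl21 (1 of 42, against 8.91% of all genes), which was 0.31 higher with retinoic acid in batch 1 and 0.49 lower in batch 2 (log2). At an unadjusted p under 0.05 there were 4 genes for IL-1α against untreated (19.9% of all genes) and 5 for retinoic acid against IL-1α (24.1% of all genes). With 2 arrays per treatment and batch this test has little precision, so a difference between batches that was not called was not detectable rather than absent.

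Paralogs of ribosomal protein genes were measured where they had a kept probe. Rpl3l, the muscle form of Rpl3, was detected on 3 of 4 untreated, 0 of 4 IL-1α and 3 of 4 retinoic acid arrays, and its untreated mean was at least 1.06-fold above IL-1α, a bound set by the lowest detected signal. Rpl39l, the testis form of Rpl39, was detected on 0 arrays, while Rpl39 itself had a mean of 12.80 untreated and changed by -0.10 with retinoic acid and 0.16 with IL-1α (neither called). Rpl7l1 changed by -0.02 and 0.26. Rps27l, a target of p53, read 12.52, 12.54, 12.55 and 12.72 untreated and 13.0003, 12.81, 12.86 and 12.93 with IL-1α, so the groups did not overlap, and the limma adjusted p was 0.0553.

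Genes that act around the ribosome were described by lists chosen for their function. Over all genes 18.1% fell and 18.6% rose with retinoic acid and 15% fell and 15.1% rose with IL-1α, and the counts below stand beside these shares with no test of the lists. Of 11 translation factors and other genes listed for TOP messages, 5 fell and 0 rose with retinoic acid. Eef2, which moves the ribosome along, fell by 0.42, Eef1d by 0.35, Eif4b by 0.94, Nap1l1 by 0.37 and Gnb2l1 by 0.83. The median of this list was -0.31 against 0.01 for all genes. With IL-1α 2 of the 11 fell, Nap1l1 by 0.50 and Eif3e by 0.50. Gnb2l1 and Eef1a1 also stand in the lists above. Of 20 genes for ribosome assembly and RNA polymerase I, 5 fell and 1 rose with retinoic acid, with a list median of 0.05, and those that fell included Ltv1, which helps export the small subunit, by 0.98, Nol5, a box C/D protein, by 0.86, Ncl, nucleolin, by 0.54 and Myc by 0.49. With IL-1α 3 fell, Pes1 by 1.57, Ncl by 0.95 and Ltv1 by 0.40, and Gnl3 and Nola2 rose. Of 12 genes of growth signalling, 3 rose and 0 fell with retinoic acid: Frap1, the older symbol of mTOR, by 0.59, Ddit4, which inhibits it, by 0.75, and Maf1, a repressor of RNA polymerase III, by 0.40. The list median was 0.04. With IL-1α Frap1, Akt1s1 and Eif4g1 rose, by 0.70, 0.41 and 0.34. Of the 67 mitochondrial ribosomal protein genes with a kept probe 17 rose and 4 fell with retinoic acid, with a median of 0.17, led by Mrps11 (0.86) and Mrpl34 (0.84). With IL-1α 13 rose and 2 fell, with a median of 0.09. The median over all genes was 0.01 in both comparisons, and 33 of the 67 were lower and 12 higher in batch 2, where 46.3% of all genes were lower and 29.7% higher.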

How the data were processed

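RNA from 12 femoral head cartilage cultures was hybridised to Illumina Sentrix Mouse arrays. The deposited table holds probe intensities on a linear scale, which the authors had neither normalised nor background-subtracted, and for each a detection score between 0 and 1. The deposited score is headed as a p-value but rises with intensity, so 1 minus the score was taken as the detection p. The bead-summary software is not given in the sources used here. No sample column was left unmapped (0). Following the study's methods, intensities were corrected and quantile-normalised with neqc (offset 16) in limma 3.58.1 (R 4.3.3), and 18200 of 46632 probes were retained, each detected at p under 0.05 by 4 arrays or more. A gene was represented by its brightest kept probe.

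Treatment was fitted to all 12 arrays with lmFit and eBayes and a factor for batch and replicate, as in the study's methods. Batch was fitted with treatment, and the difference between batches with 6 group means. P-values were adjusted by Benjamini-Hochberg over all kept probes. The fits were tested on simulated data. Depth is set by the number of arrays, 4 per treatment, which limits the precision. Raw intensity is reported in the same units as deposited.

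The genes named were the study's reference genes and others in common use, the 5 largest called changes per comparison and between batches, the 5 smallest and largest SDs, paralogs, genes without a kept probe, genes with probes called in opposite directions, and the reference gene list. Other genes, such as the remaining called ones, Rps24, Rpl23, Rps10 and Rpl35, were named after their values were seen. Members and lists, including cell type markers, were chosen with earlier results of these data known. The alternatives were other normalisations, offsets, filters, covariates, variance priors and probe rules, and leaving out each array. The labels describe culture with serum before treatment and the methods serum-free culture, and this was not resolved. Values of some genes are not reported here, and the plots with gene names leave them out, while counts and medians over the family include them.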

Additional observations from a re-analysis of the deposited data

Results flagged for a closer look

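In 5 of the 120 groups of 4 arrays examined (a gene, the detected probes or the signal share under a treatment), 1 array stood apart from the other 3 by Dixon's criterion at the 95% level, and chance gives about 1 in 20. For untreated cartilage these were Rpl38 on batch 2 replicate 2, at 9.22 against 9.64 to 9.72, and Rps27l on the same array, at 12.72 against 12.52 to 12.55. With IL-1α they were Rpl27a on batch 2 replicate 1, at 13.39 against 13.69 to 13.71, and Rps21 on batch 2 replicate 2, at 13.47 against 13.69 to 13.71. With retinoic acid it was Rps9 on batch 1 replicate 2, at 13.98 against 14.10 to 14.13. All values are normalized log2 intensities, and 4 of the 5 are from batch 2.

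For 2 genes a treatment difference itself differed between batches. The change of Rps19 with IL-1α was 1.11 lower in batch 2 than in batch 1 (-1.11 ± 0.27, log2, SE, limma adjusted p = 0.0293). The difference of Rpl21 between retinoic acid and IL-1α was 0.80 lower in batch 2 (-0.80 ± 0.21, log2, SE, limma adjusted p = 0.0312). Both are described with their values above, and no cause was tested.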

How the results depend on the processing

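Of the counts of called genes, those without batch or replicate (treatment only) were lowest: 2 in place of 9 for retinoic acid against untreated, 0 in place of 6 for IL-1α and 3 in place of 5 between the treatments, with 16 in place of 26 genes within 1.5-fold in all comparisons. In that fit the batch difference, called for 76.1% of all genes, enters the spread. The share of all genes was not counted for this or the other alternatives. A changed count therefore cannot be told apart from a change over all genes. Counting every kept probe, an alternative chosen after seeing the data, gave 16, 10 and 9 calls. Deviations of same-numbered arrays from their group means correlated at -0.11 to 0.39, so whether the replicate numbers pair the arrays was not settled. The main fit holds these numbers in its factor for batch and replicate. With no replicate block but with batch, 10, 6 and 7 genes were called. Leaving out 1 array at a time gave 8 to 10, 3 to 8 and 4 to 6 calls, 24 to 27 between batches, 21 to 28 genes within 1.5-fold, and 0 to 3 calls of a treatment difference between batches in place of 2. That count was 1 under median scaling, 1 without a filter and 1 with the mean of a gene's probes. Median scaling left 5 genes within 1.5-fold, and turned the split of IL-1α calls from 2 higher and 4 lower to 0 and 4. The median SD over arrays was 0.27, against 0.40 with neqc run within each batch and a geNorm M of 0.49. The IL-1α change of Rpl26 ran from -0.12 to 0.030 without 1 array, and was above 0 without untreated batch 2 replicate 1 (0.030) and without IL-1α batch 2 replicate 1 (0.011). Without 1 array Rpl22l1 with IL-1α lost its call in 6 fits and Rps3a between the treatments in 1. For 28 values of single genes (all treatment calls, the 5 largest batch differences and Rpl26), 569 alternative values kept direction and call, 49 lost the call and 2 changed direction. Over all 42 genes, median scaling changed the sign of 7, 9 and 9 differences in the 3 treatment comparisons, 0 of them called. The cause of these differences was not tested. The 8 genes without a kept probe have no value.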
